A study of Mus musculus with 6 samples.

Results

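Collagen hydroxylases and collagen chaperones are the endoplasmic reticulum proteins that modify and fold procollagen before it is secreted. The 10 genes described here are the prolyl 4-hydroxylase subunits P4ha1, P4ha2, P4ha3 and P4hb, the lysyl hydroxylases Plod1, Plod2 and Plod3, and the chaperones Serpinh1, Fkbp10 and Crtap. They were taken by name, and all 10 were found among 42256 genes and were among the 15840 that passed the filter on low counts. The deposited counts are estimated reads per gene, and levels are given as CPM, the counts of a gene relative to the scaled total of its library.

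RNA came from PDGFRa+ cells sorted from the scar of collagenase-digested mouse hearts 7 days after injury. In the 4 Htr2b_cKO libraries the genotype was Htr2bfl/flPostnMCM/+, in which the serotonin receptor gene is floxed and an inducible Cre sits in one copy of Postn (periostin), a gene of activated fibroblasts. The 2 control libraries were Htr2bfl/fl without Cre. Every mouse was of mixed 129S2/C57Bl6 background and was fed tamoxifen in the chow, starting 1 week ahead of the injury. The age of the mice is not given in the sources used here. No control mouse carried the Cre, so effects of the Cre or of the altered Postn copy and of losing Htr2b cannot be told apart. The Cre acts in Postn-expressing cells, whereas the sort takes every PDGFRa+ cell. The series design counts 4 experimental and 2 control animals, so each library stands for 1 animal.

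Htr2b had 0, 3, 29 and 4 estimated counts in the Htr2b_cKO libraries 1 to 4, against 13 and 7 in the control libraries. Its count in the library labelled Htr2b_cKO 3 was above both controls and goes against that label. Which exons are floxed is not given in the sources used here, so these counts may hold reads from outside the deleted part. Postn, the gene that carries the Cre, had 1349, 1526, 2310 and 981 CPM in the Htr2b_cKO libraries, against 2308 and 1585 CPM in the control libraries. The library labelled Htr2b_cKO 3 was level with control 1, and the other Htr2b_cKO libraries were below both controls. The comparisons of the members are therefore given with and without the library labelled Htr2b_cKO 3. Xist, the transcript of the inactive X chromosome, stood at 0.267 CPM in Htr2b_cKO 4, while the other 5 libraries had at least 385 CPM. No control library had so low a level, so sex, if it differed between the animals, was not balanced between the groups. Its part in the member values was not tested. Totals ran from 28533427 to 37392496 estimated counts. The members were deeply covered, with 1275 to 153852 counts per library. The fibroblast genes Pdgfra, Col1a1, Col1a2, Dcn, Lum and Tcf21 were detected in every library. The cells also held macrophage RNA. The summed level of Adgre1, Csf1r, Cd68, Lyz2 and C1qa was 582, 1634, 3321 and 254 CPM in the Htr2b_cKO libraries, against 1925 and 564 CPM in the control libraries. The summed endothelial markers reached 228 CPM in control 1 and lay between 42.4 and 85.2 CPM in the other 5 libraries. Summed B and plasma cell markers were 22.6 to 113 CPM in the Htr2b_cKO and 144 to 162 CPM in the control libraries, and epicardial markers were 221 to 285.6 CPM in the Htr2b_cKO and 286.1 to 384 CPM in the control libraries. Cardiomyocyte markers reached 25.3 CPM in the Htr2b_cKO and 32.4 CPM in the control libraries, and mural markers reached 58.2 CPM in the Htr2b_cKO and 77.2 CPM in the control libraries. Neutrophil markers reached 76.7 CPM in the Htr2b_cKO and 97.8 CPM in the control libraries, and T cell markers 2.32 CPM in the Htr2b_cKO and 2.99 CPM in the control libraries. No marker of these lists was at 0 in every library. The part of these cells in the member values was not tested.

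Procollagen chains can form a stable triple helix at body temperature only after many of their prolines carry a hydroxyl group. Prolyl 4-hydroxylase, a tetramer of catalytic alpha subunits (P4ha1, P4ha2 or P4ha3) and the beta subunit P4hb, adds it with iron, oxygen, 2-oxoglutarate and ascorbate. Lysyl hydroxylases use the same cofactors, and the hydroxylysines they make decide which crosslinks the secreted fibrils can form. Serpinh1, also known as HSP47, binds the folded helix, Fkbp10 is a prolyl isomerase that also assists Plod2, and Crtap is a partner of the prolyl 3-hydroxylase P3h1. In healing hearts fibroblasts are the main source of this machinery, and P4ha1, P4ha2 and Plod2 are known targets of the hypoxia-inducible factors.

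Promoter sequences of 8 members, all but Plod2 and Fkbp10, were available from RefSeq on the build GRCm38.p6. Each covered 250 bases before to 50 after an annotated start. For Plod1 and Crtap that start lies outside the gene span given below. For P4ha2 it lies inside the gene span and not at its outer end. The promoters of P4ha1 and P4ha2 are shown because hypoxia-inducible factors are known to act on these catalytic subunits, and that of Serpinh1 because it was the most abundant member. Capitals mark the hypoxia core letters ACGTG and GCGTG on either strand, so the reverse complements CACGT and CACGC are also in capitals. They lie at chr10:59323046-59323345 on the plus strand, chr11:54100674-54100973 on the plus strand and chr7:99353190-99353489 on the minus strand.
P4ha1: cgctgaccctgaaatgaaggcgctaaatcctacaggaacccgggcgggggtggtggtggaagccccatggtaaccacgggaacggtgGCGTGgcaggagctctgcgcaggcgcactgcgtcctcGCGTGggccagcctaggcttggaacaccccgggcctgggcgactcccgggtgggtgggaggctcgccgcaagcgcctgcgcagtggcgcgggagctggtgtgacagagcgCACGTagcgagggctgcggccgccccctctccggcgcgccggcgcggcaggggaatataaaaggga
P4ha2: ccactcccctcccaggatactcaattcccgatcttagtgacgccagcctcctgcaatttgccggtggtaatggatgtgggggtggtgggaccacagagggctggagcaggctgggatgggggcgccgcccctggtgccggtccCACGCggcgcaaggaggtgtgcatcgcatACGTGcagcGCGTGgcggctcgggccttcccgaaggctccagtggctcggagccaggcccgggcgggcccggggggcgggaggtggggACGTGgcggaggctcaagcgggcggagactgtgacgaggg
Serpinh1: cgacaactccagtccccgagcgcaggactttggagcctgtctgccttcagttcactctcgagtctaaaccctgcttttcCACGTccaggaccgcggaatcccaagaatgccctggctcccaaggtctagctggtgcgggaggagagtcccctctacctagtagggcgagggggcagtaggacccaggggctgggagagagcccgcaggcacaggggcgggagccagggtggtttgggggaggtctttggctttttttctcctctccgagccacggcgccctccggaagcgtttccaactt
ACGTG was present in 5 of the 8 member promoters (P4ha1, P4ha2, P4hb, Plod3 and Serpinh1) and in 19.6% of all 32851 RefSeq promoters of the same length. GCGTG was present in 6 of the 8 (P4ha1, P4ha2, P4hb, Plod1, Plod3 and Crtap) and in 32.4% of all promoters. In P4ha3 neither was found. The GC content of the 8 promoters ran from 53.3% (Plod3) to 70.3% (P4ha1 and P4ha2). The shares over all promoters were not matched for GC content. A match of 5 letters is a description of the sequence and is not evidence of binding.

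Summed over the 10 genes, the difference between the genotypes was smaller than the spread between libraries. The 10 members together had 7571, 8000, 5900 and 8613 CPM in the Htr2b_cKO libraries, against 7450 and 7543 CPM in the control libraries. The control values lie inside the spread of the Htr2b_cKO libraries (7521 ± 1162 CPM for Htr2b_cKO, n = 4, and 7496 ± 66 CPM for control, n = 2, mean ± SD; exact two-sided permutation p = 0.933). With 15 ways to split the libraries, the smallest p this test can give is 0.0667. Most of the sum came from Serpinh1 (mean 3910 CPM in Htr2b_cKO and 3929 CPM in control) and P4hb (1511 and 1595 CPM). It therefore says little about the other members. No member was called by the quasi-likelihood test of edgeR (adjusted p of 0.579 to 0.994), beside 0.0189% of all tested genes called (0.0126% higher and 0.00631% lower in Htr2b_cKO). At an unadjusted p under 0.05 the count of members was 0 with edgeR, 0 with DESeq2 and 0 with limma voom. In the edgeR fit this stands beside 9.59% of all genes (6.60% higher and 2.99% lower). With the correction for GC and length the count was 1 (P4ha3), beside 424 genes higher and 457 lower of the 15840 tested genes. Without the library labelled Htr2b_cKO 3 it was 1 (Plod2), beside 12.6% of all genes. In 0 of the 10 members were the groups free of overlap, beside 19.6% of all tested genes (10.6% higher). Log2 fold changes, Htr2b_cKO over control, were above 0 for 5 members and below 0 for 5, with a median of 0.04, beside 7918 of the 15840 genes above 0 and a median of -0.00012 for all genes. The 5 estimates below 0 (P4hb, Plod1, Serpinh1, Fkbp10 and Crtap) were all above 0 once counts were corrected for GC content and exon length.

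**Figure D1:**
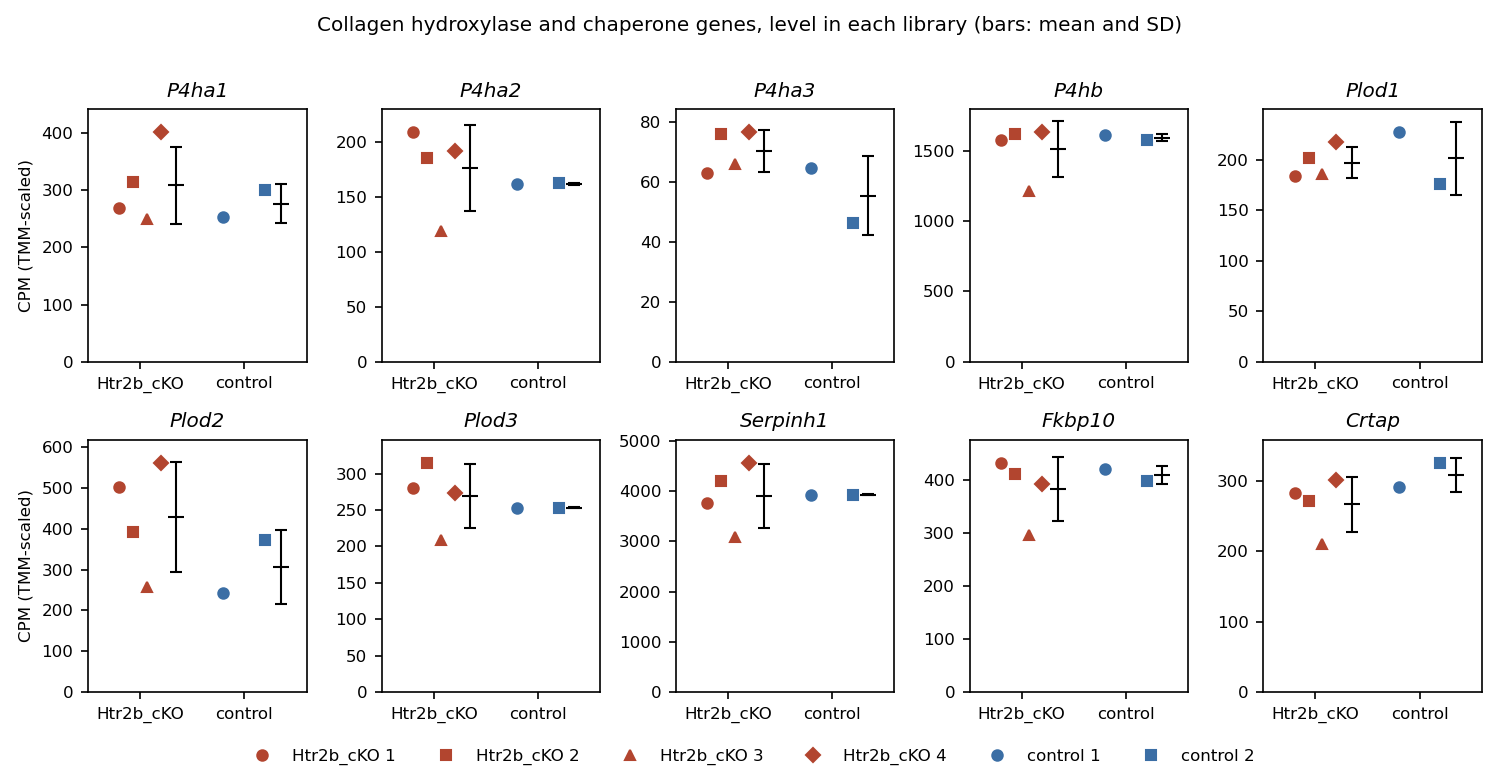
Level of each member in CPM (y axis, from 0) in the 4 Htr2b_cKO and 2 control libraries, 1 point per library, with the mean and SD as black bars. The library labelled Htr2b_cKO 3 (triangle) is the lowest of the 6 for 7 of the 10 genes, and the groups overlap in every panel.

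Levels per kb of exon set the members far apart. Averaged over the 6 libraries, Serpinh1 stood at 1603 CPM per kb and P4hb at 538 CPM per kb. Crtap followed at 158 and Fkbp10 at 133 CPM per kb. The values of these neighbours overlapped over the libraries, but within each of the 6 libraries Crtap was above Fkbp10. P4ha1 at 72.5, Plod2 at 72.0 and Plod3 at 58.4 CPM per kb also overlapped. Plod1 at 29.4, P4ha2 at 27.5 and P4ha3 at 20.8 CPM per kb formed the lowest group, in which each gene overlapped its neighbour. Serpinh1, the chaperone dedicated to collagen, had a higher level per kb than any hydroxylase subunit in each of the 6 libraries.

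Among the prolyl hydroxylase genes, the 3 alpha subunit genes had estimates above 0, and the beta subunit gene had one below 0 that turned positive with the correction for GC and length. P4ha1 (ENSMUSG00000019916, chr10:59323296-59373304 in mm10) had 270, 315, 250 and 402 CPM in the Htr2b_cKO libraries, against 253 and 301 CPM in the control libraries. The highest and the lowest value were both of Htr2b_cKO libraries, so the groups overlap (log2 fold change 0.16, SE 0.21, edgeR adjusted p = 0.837). The P4ha1 estimate was 0.0092 without Htr2b_cKO 4, 0.039 without control 1, 0.30 without control 2 and 0.08 with the correction for GC and length. P4ha2 (ENSMUSG00000018906, chr11:54100095-54131665) had 209, 185, 119 and 192 CPM in the Htr2b_cKO libraries, against 161 and 162 CPM in the control libraries. Here 3 of the 4 Htr2b_cKO libraries lay above both controls and the library labelled Htr2b_cKO 3 lay below them (log2 fold change 0.12, SE 0.22, edgeR adjusted p = 0.886). The P4ha2 estimate was 0.040 without Htr2b_cKO 1 and 0.28 without the library labelled Htr2b_cKO 3. P4ha3 (ENSMUSG00000051048, chr7:100285520-100319699) had 62.8, 75.9, 65.8 and 76.5 CPM in the Htr2b_cKO libraries, against 64.6 and 46.1 CPM in the control libraries. It had the smallest unadjusted p of the 10 members (0.0798; log2 fold change 0.34, SE 0.17, edgeR adjusted p = 0.579). That estimate rests on control 2, the lowest of the 6 libraries. It was 0.13 without control 2. In edgeR it was 0.61 without control 1, and 0.52 with the correction for GC and length (unadjusted p = 0.00905, adjusted p = 0.779).

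P4hb (ENSMUSG00000025130, chr11:120560298-120573253) encodes protein disulfide isomerase, which also forms disulfide bonds outside the hydroxylase. It had 1580, 1621, 1212 and 1631 CPM in the Htr2b_cKO libraries, against 1612 and 1577 CPM in the control libraries. The library labelled Htr2b_cKO 3 stands below the other 5, which lie close together (log2 fold change -0.08, SE 0.18, edgeR adjusted p = 0.917; 0.03 without that library and 0.10 with the correction for GC and length). The ratio of P4hb to the summed alpha subunits, in levels per kb, was 4.64, 4.34, 4.20 and 3.73 in the Htr2b_cKO libraries, against 5.22 and 4.84 in the control libraries. All 4 Htr2b_cKO libraries were below both controls (exact two-sided permutation p = 0.0667, the smallest possible). This ratio was chosen after the values had been seen. Without the library labelled Htr2b_cKO 3 the difference was -0.79, against -0.80 with it. With the correction for GC and length the groups overlapped, at 4.41 ± 0.42 in Htr2b_cKO (n = 4) and 4.63 ± 0.09 in control (n = 2, mean ± SD; exact permutation p = 0.533).

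The 3 catalytic subunits kept their order in most libraries. P4ha1 made up 55.1%, 58.7%, 60.2% and 63.9% of the summed alpha level per kb in the Htr2b_cKO libraries, against 57.0% and 64.2% in the control libraries. P4ha2 averaged 22.5 ± 4.1% in Htr2b_cKO and 23.4 ± 0.8% in control libraries, and P4ha3 averaged 18.0 ± 2.1% in Htr2b_cKO and 16.0 ± 4.4% in control libraries (mean ± SD, n = 4 and 2). P4ha2 exceeded P4ha3 per kb in every library except the one labelled Htr2b_cKO 3, where P4ha3 had 20.8% and P4ha2 had 19.0%. Without that correction, the differences of all 3 shares were within the spread between libraries (exact two-sided permutation p of 0.733, 0.867 and 0.533 for P4ha1, P4ha2 and P4ha3). Without the library labelled Htr2b_cKO 3 the differences were -1.33 points for P4ha1, 0.23 for P4ha2 and 1.11 for P4ha3. With the correction for GC and length the P4ha1 share differed by -4.21 points (exact permutation p = 0.267). The P4ha3 share then differed by 4.16 points and its groups no longer overlapped, at 18.8 ± 1.9% in Htr2b_cKO and 14.6 ± 2.97% in control libraries (mean ± SD, n = 4 and 2; exact permutation p = 0.133).

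**Figure D2:**
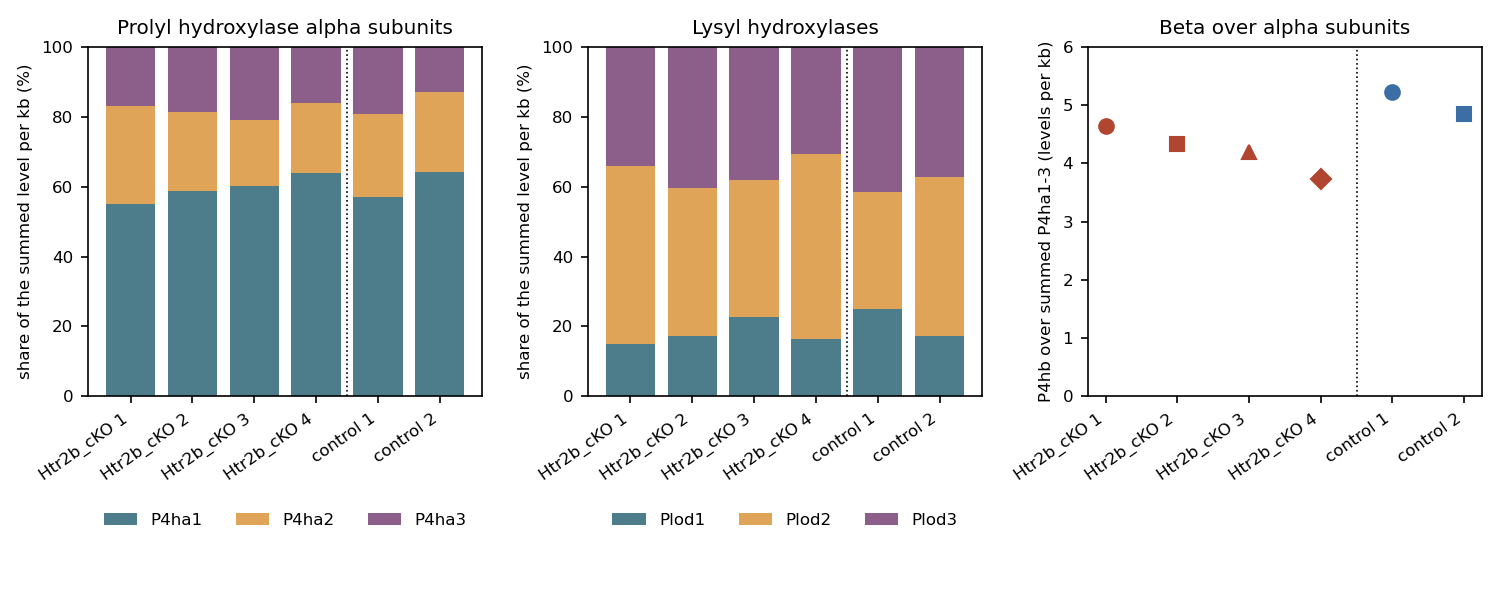
Shares of the summed level per kb (%, y axis) taken by the 3 prolyl hydroxylase alpha subunits and the 3 lysyl hydroxylases, 1 bar per library, and P4hb over the summed alpha subunits as 1 point per library. P4ha1 holds 55.1% or more of the alpha level in each library, the Plod2 share runs from 33.5% to 53.0%, and the beta over alpha ratio is 3.73 to 4.64 in Htr2b_cKO and 4.84 and 5.22 in control libraries.

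The lysyl hydroxylases differed in how much they varied. Plod2 (ENSMUSG00000032374, chr9:92542223-92608428) hydroxylates lysines in the collagen telopeptides, the step that leads to the stable pyridinoline crosslinks of scars. It had 503, 392, 257 and 562 CPM in the Htr2b_cKO libraries, against 243 and 371 CPM in the control libraries. With a 2.31-fold range over the 6 libraries it was the most variable of the 10 members, and 3 of the 4 Htr2b_cKO libraries were above both controls. Its log2 fold change of 0.48 (SE 0.33, edgeR adjusted p = 0.674) was the largest of the 10, and the range of 2 SEs on both sides was -0.17 to 1.13. The estimate was 0.20 without control 1, 0.83 without control 2, 0.67 without the library labelled Htr2b_cKO 3 and 0.27 with the correction for GC and length. Exons of Plod2 share 346 bases, 6.4% of its exon length, with Gm38391 on the opposite strand, so its level may hold reads of that gene.

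Plod1 (ENSMUSG00000019055, chr4:147909753-147936767), which acts on lysines of the helix, had 184, 202, 186 and 217 CPM in the Htr2b_cKO libraries, against 227 and 176 CPM in the control libraries. It was the steadiest member, with a 1.29-fold range, and the 2 controls were its extremes (log2 fold change -0.03, SE 0.15, edgeR adjusted p = 0.965; 0.16 without control 1 and 0.03 with the correction for GC and length). Plod3 (ENSMUSG00000004846, chr5:136987019-136996648) also transfers sugars to hydroxylysine. It had 281, 315, 209 and 273 CPM in the Htr2b_cKO libraries, against 252.8 and 253.4 CPM in the control libraries. The library labelled Htr2b_cKO 3 was below both controls and the other 3 were above them (log2 fold change 0.09, SE 0.18, edgeR adjusted p = 0.903; 0.21 without that library, 0.011 without Htr2b_cKO 2 and 0.23 with the correction for GC and length). Exons of Plod3 overlap those of Znhit1 on the opposite strand over 529 bases, 11.7% of its exon length. Whether the counting used strand is not stated, so its level may hold reads of that gene.

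Within the lysyl hydroxylases, Plod2 took 51.1%, 42.2%, 39.3% and 53.0% of the summed level per kb in the Htr2b_cKO libraries, against 33.5% and 45.6% in the control libraries. The lower of the 2 control values was the lowest of all and the other lay inside the Htr2b_cKO range. The means were 46.4 ± 6.7% in Htr2b_cKO and 39.5 ± 8.6% in control libraries (mean ± SD, n = 4 and 2), and the difference was within the spread (exact two-sided permutation p = 0.333). Plod1 averaged 17.8 ± 3.4% in Htr2b_cKO and 21.1 ± 5.5% in control libraries, and Plod3 averaged 35.8 ± 4.3% in Htr2b_cKO and 39.4 ± 3.1% in control libraries (exact permutation p = 0.4 for both). Without the library labelled Htr2b_cKO 3 the difference was 9.22 points for the Plod2 share, against 6.85 with it. It was 0.78 without control 1, 12.9 without control 2 and 1.26 with the correction for GC and length. Plod2 exceeded Plod3 per kb in 5 libraries, and Plod3 was higher in control 1.

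The 3 chaperone genes had estimates below 0 that turned positive with the correction for GC and length, and none passed the test. Serpinh1 (ENSMUSG00000070436, chr7:99345376-99353239) had 3767, 4212, 3095 and 4568 CPM in the Htr2b_cKO libraries, against 3924 and 3933 CPM in the control libraries. The 2 controls were close to each other and lay in the middle of the Htr2b_cKO values (log2 fold change -0.01, SE 0.21, edgeR adjusted p = 0.994; 0.10 without the library labelled Htr2b_cKO 3 and 0.19 with the correction for GC and length). Its range of 2 SEs on both sides was -0.43 to 0.42. Fkbp10 (ENSMUSG00000001555, chr11:100415697-100424824) had 432, 411, 295 and 392 CPM in the Htr2b_cKO libraries, against 421 and 397 CPM in the control libraries. The library labelled Htr2b_cKO 3 was again the lowest (log2 fold change -0.10, SE 0.18, edgeR adjusted p = 0.896; 0.02 without it and 0.09 with the correction for GC and length). Its exons share 193 bases with Nt5c3b on the opposite strand.

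Crtap (ENSMUSG00000032431, chr9:114375134-114390675) had 283, 271, 210 and 300.2 CPM in the Htr2b_cKO libraries, against 291 and 325 CPM in the control libraries. Only Htr2b_cKO 4 lay above a control (log2 fold change -0.21, SE 0.17, edgeR adjusted p = 0.715). The estimate was -0.10 without the library labelled Htr2b_cKO 3, -0.12 without control 2 and 0.01 with the correction for GC and length.

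**Figure D3:**
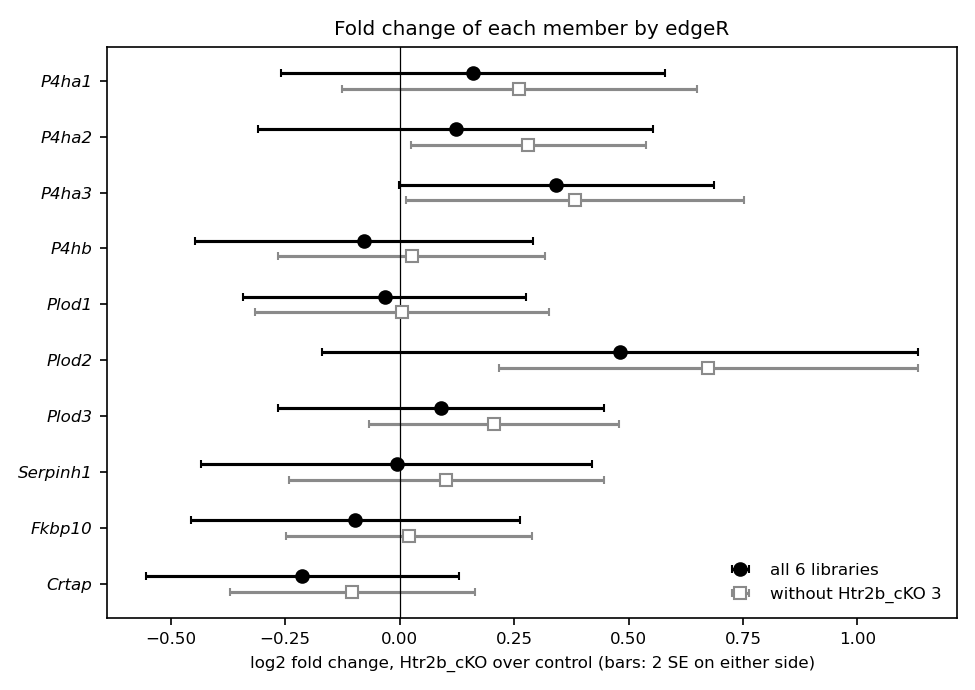
Log2 fold change of each member, Htr2b_cKO over control (x axis), from edgeR with all 6 libraries (filled circles) and without the library labelled Htr2b_cKO 3 (open squares), with bars of 2 SEs on either side. With all 6 libraries every bar crosses 0, 5 estimates are above 0 and 5 below (these 5 are above 0 with the correction for GC and length). Without that library 9 of the 10 are above 0. The bars of P4ha2, P4ha3 and Plod2 then lie above 0, but edgeR called no member (adjusted p of 0.418, 0.439 and 0.321 for these).

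One library stood low for most members. The library labelled Htr2b_cKO 3 was the lowest of the 6 for 7 of the 10 members, all but P4ha3, Plod1 and Plod2. The same library was the lowest for 25.1% of the 5248 tested genes with an average log2 CPM of 5 or more in the edgeR fit. Its level was 0.53 times the mean of the other 3 Htr2b_cKO libraries for Plod2, 0.61 times for P4ha2 and 0.74 times for Serpinh1, against 0.93 times for Plod1. The fibrillar collagen genes were low there too, with Col1a1 at 0.52 times and Col3a1 at 0.65 times that mean. The same library had the highest summed macrophage markers, at 3321 CPM, and Htr2b_cKO 4 had the lowest, at 254 CPM. Htr2b_cKO 4, where Xist stood at 0.267 CPM, was the highest for 5 of the 10 members, beside 19.5% of those genes. In between, the orders differed, since Htr2b_cKO 2 had the second highest member sum with macrophage markers at 1634 CPM. The part of macrophage RNA in these differences was not tested. In bulk RNA, fewer fibroblasts in a sample and less RNA per fibroblast cannot be told apart.

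Without the library labelled Htr2b_cKO 3, 9 of the 10 members had a log2 fold change above 0 and the median was 0.15, beside a median of -0.00027 for all genes. With all 6 libraries, 5 members were above 0 and the median was 0.04. The library left out was the lowest of the 6 for 7 of the 10 members. Leaving it out therefore raises the Htr2b_cKO mean of those 7 by construction. The Htr2b_cKO libraries then lay above both controls for P4ha2, Plod2 and Plod3, which is 3 of 10 members beside 16.3% of all genes. All 3 were higher, and 31.4% of all genes were free of overlap in either direction. Again no member was called by edgeR, beside 0.0128% of all genes. The log2 fold change was 0.26 for P4ha1, 0.28 for P4ha2, 0.38 for P4ha3, 0.03 for P4hb and 0.01 for Plod1. Plod2 alone had an unadjusted p under 0.05 (0.0195, log2 fold change 0.67, SE 0.23, adjusted p = 0.321), beside 12.6% of all genes. In the same fit all 5 fibrillar collagen genes were above 0, with a median of 0.28. None of the 5 macrophage markers was above 0 (median -0.48), nor was any of the 5 endothelial markers (median -1.21) or of the 5 B and plasma cell markers (median -2.20). The library left out had the highest summed macrophage markers, so leaving it out lowers their Htr2b_cKO mean by construction. With all 6 libraries, 3 of the 5 macrophage markers were above 0, and none of the endothelial or of the B and plasma cell markers. The part of these cells in the shift of the members was not tested.

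**Figure D4:**
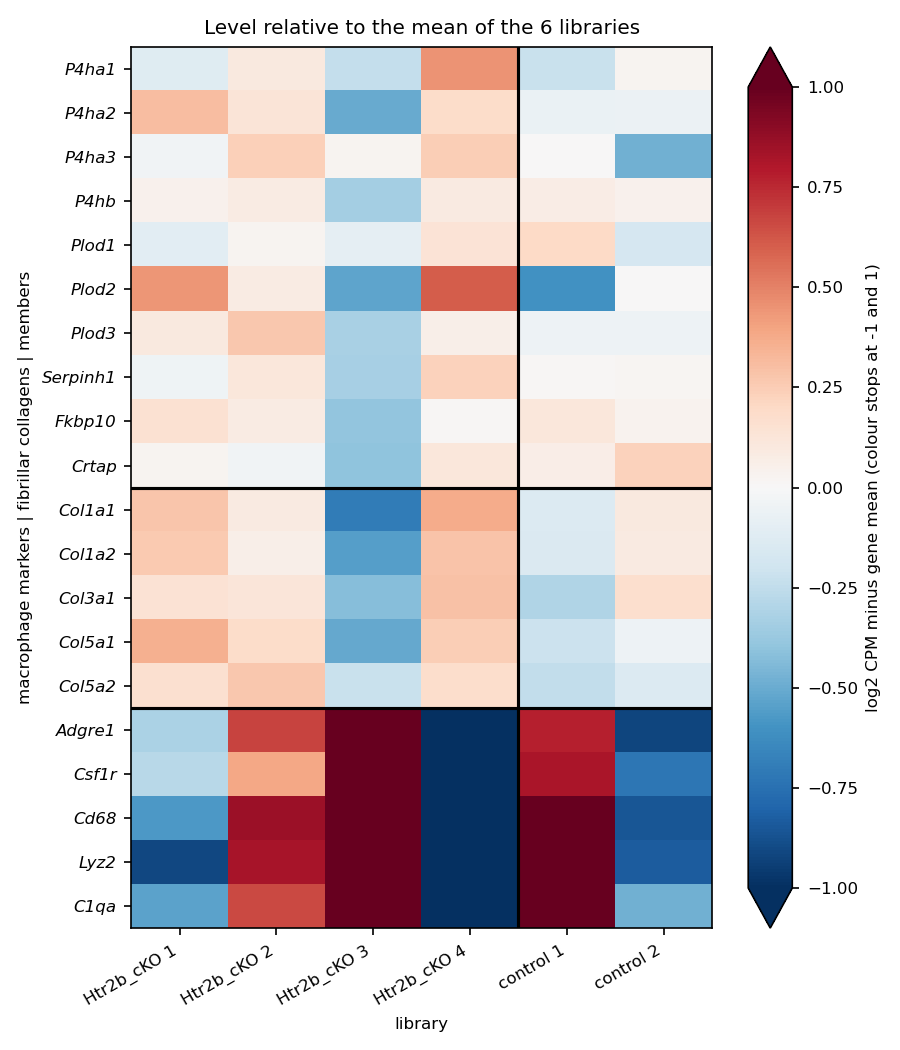
Log2 CPM minus the mean of the 6 libraries (colour) for the 10 members, 5 fibrillar collagen genes and 5 macrophage markers (rows, top to bottom) in each library (columns). The column of the library labelled Htr2b_cKO 3 is low for most members and for Col1a1 (-0.70) and high for Lyz2 (1.93, where colours stop at 1), and the column of Htr2b_cKO 4 reads 0.37 for Col1a1 and -2.02 for Lyz2.

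The members were also set against their substrate. For every 1000 CPM of Col1a1, Col1a2 and Col3a1 RNA, the cells held 66.4, 75.9, 86.5 and 70.3 CPM of the 10 members in the Htr2b_cKO libraries, against 87.7 and 70.1 CPM in the control libraries. For Serpinh1 alone the values were 33.0, 39.98, 45.4 and 37.3 CPM in the Htr2b_cKO libraries, against 46.2 and 36.5 CPM in the control libraries. The 2 highest values of both ratios belonged to the library labelled Htr2b_cKO 3 and to control 1, which also had the 2 lowest sums of these collagens, at 68227 and 84924 CPM. These sums are the denominator of both ratios, so a low sum raises the ratios by arithmetic. The summed members varied less between libraries than the collagen RNA did. On the log2 scale the difference between Htr2b_cKO and control was -0.08 for the 10 members and -0.09 for Serpinh1 (exact two-sided permutation p of 0.733 and 0.667). Without the library labelled Htr2b_cKO 3 they were -0.15 and -0.16. Both estimates were above 0 when control 1 was left out and also with the correction for GC and length, at 0.09 and 0.04 for the members and at 0.08 and 0.07 for Serpinh1.

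Of the substrates, Col1a1, the most studied chain of type I collagen, had 33838, 29758, 17256 and 36290 CPM in the Htr2b_cKO libraries, against 25472 and 29942 CPM in the control libraries. Col5a2, a chain of the type V collagen that starts fibrils, had 3302, 3555, 2533 and 3343 CPM in the Htr2b_cKO libraries, against 2491 and 2683 CPM in the control libraries (log2 fold change 0.30, SE 0.20, edgeR adjusted p = 0.673). All 5 fibrillar genes, with Col1a2, Col3a1 and Col5a1, had estimates between 0.07 and 0.30, and 0 were called.

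Other genes of the collagen folding machinery were also without a call. Of 23 further genes of collagen modification and folding in the endoplasmic reticulum, 9 had a log2 fold change above 0 and 14 below, with a median of -0.01, and 0 were called in either direction. Without the library labelled Htr2b_cKO 3, 13 of the 23 were above 0. The 4 with the smallest p were Hsp90b1, Fkbp11, Canx and P3h4. Hsp90b1, the chaperone GRP94, had 1454, 1514, 1228 and 1954 CPM in the Htr2b_cKO libraries, against 942 and 1347 CPM in the control libraries (log2 fold change 0.43, SE 0.24, edgeR adjusted p = 0.618). The lectin chaperone Canx had 454 ± 53 CPM in Htr2b_cKO and 368 ± 93 CPM in control libraries (mean ± SD, n = 4 and 2). P3h4, a partner of Plod1 and P3h3, had 146, 145, 131 and 142 CPM in the Htr2b_cKO libraries, against 153 and 165 CPM in the control libraries. Its groups did not overlap, nor did those of Fkbp11 (37.4 ± 7.2 CPM in Htr2b_cKO and 46.1 ± 0.4 CPM in control libraries), but neither passed the test (edgeR adjusted p of 0.684 and 0.646). With P3h3, named after its values were seen, 3 of the 23 genes were free of overlap, all lower in Htr2b_cKO, beside 19.6% of all genes in either direction.

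Of 16 genes of procollagen export, 8 were above 0 and 8 below, and 0 were called. Mia3 and Mia2 encode the receptors at the exit sites that load bulky procollagen into carriers, and Klhl12 is an adaptor of the ubiquitin ligase that enlarges these carriers. Mia2 had 51.5, 57.9, 56.6 and 56.9 CPM in the Htr2b_cKO libraries, against 40.7 and 48.2 CPM in the control libraries. All 4 Htr2b_cKO libraries were above both controls (log2 fold change 0.33, SE 0.13, unadjusted p = 0.0388, edgeR adjusted p = 0.499), beside 10.6% of all genes that were free of overlap and higher and 6.60% that were higher at an unadjusted p under 0.05. Mia2 was no longer higher at an unadjusted p under 0.05 with the correction for GC and length, with the DESeq2 Wald test, without Htr2b_cKO 2, without control 1 or without the libraries labelled Htr2b_cKO 3 and 4. Klhl12 had 17.7, 14.6, 16.0 and 17.3 CPM in the Htr2b_cKO libraries, against 12.95 and 13.05 CPM in the control libraries, likewise without overlap (log2 fold change 0.34, SE 0.16, edgeR adjusted p = 0.571). Mia3 overlapped, with 184 ± 21 CPM in Htr2b_cKO and 144 ± 33 CPM in control libraries (log2 fold change 0.36, SE 0.18, edgeR adjusted p = 0.583). Preb, a guanine nucleotide exchange factor for the carrier coat, had 64.0 ± 5.9 CPM in Htr2b_cKO and 74.5 ± 0.1 CPM in control libraries, without overlap (edgeR adjusted p = 0.638). Kdelr3, named after its values were seen, was also lower without overlap, which makes 4 of the 16 genes, 2 higher and 2 lower, beside 19.6% of all genes.

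Because P4ha1, P4ha2 and Plod2 are hypoxia targets, 14 further hypoxia genes were read in the same fit. Of these, 8 were above 0 and 6 below, with a median of 0.06, and 0 were called. Of the 14, 11 were above 0 without the library labelled Htr2b_cKO 3, with a median of 0.20. Vegfa, the angiogenic factor, had 115, 165, 122 and 189 CPM in the Htr2b_cKO libraries, against 115.6 and 116.1 CPM in the control libraries, where Htr2b_cKO 1 lay below both controls (log2 fold change 0.35, SE 0.22, edgeR adjusted p = 0.642). Bnip3, a mitophagy receptor, had 60.6, 49.99, 37.2 and 69.95 CPM in the Htr2b_cKO libraries, against 46.97 and 41.3 CPM in the control libraries (log2 fold change 0.30, SE 0.24, edgeR adjusted p = 0.71). Ankrd37 and Pfkfb3 were the other 2 with the smallest p, at -0.56 (SE 0.42) and 0.14 (SE 0.16).

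The profile of Plod2 over the libraries had close neighbours. Likeness was measured as the root mean square difference in log2 CPM over the 6 libraries, after subtracting the mean of each gene. The pool was 5174 other genes whose log2 CPM, averaged over the 6 libraries and not taken from the edgeR fit, was 5 or more. The nearest gene to Plod2 was Hif1a, at 0.034, followed by Bbx at 0.073 and Acsl4 at 0.089, while the median gene was at 0.458. Hif1a, the oxygen-regulated subunit of hypoxia-inducible factor 1, had 410, 323, 215 and 469 CPM in the Htr2b_cKO libraries, against 192 and 317 CPM in the control libraries. For Hif1a, as for Plod2, the libraries ran in the order Htr2b_cKO 4, 1 and 2, control 2, the library labelled Htr2b_cKO 3 and control 1. For P4ha1 the nearest were Dot1l at 0.056, Zfp36 at 0.058 and Polr3k at 0.060, with the median gene at 0.284. For Serpinh1 they were Fasn at 0.042, Pabpc4 at 0.0471 and Pgm1 at 0.0472, with the median gene at 0.241. These are descriptions of 6 libraries that differed in depth and in their mix of cells, which all genes of a library share. The levels compared were not corrected for GC content and exon length. The part of the mix of cells in these likenesses was not tested.

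**Figure D5:**
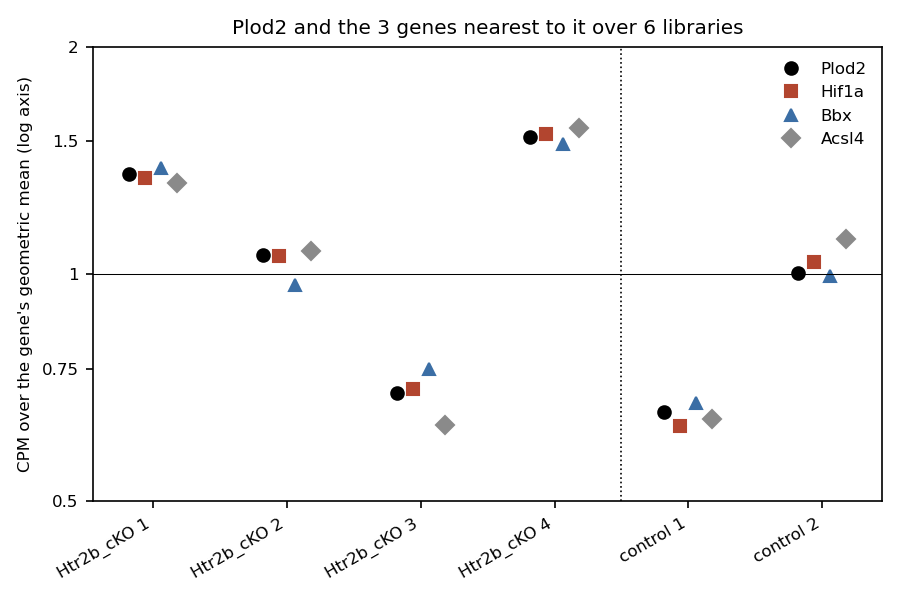
CPM divided by the geometric mean of the gene over the 6 libraries (y axis, log scale) for Plod2 and the 3 genes nearest to it, Hif1a, Bbx and Acsl4, in each library. In each library the points of the 4 genes lie close together, highest in Htr2b_cKO 4 and low in the library labelled Htr2b_cKO 3 and in control 1.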

How the data were processed

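RNA-seq of 4 Htr2b_cKO and 2 control libraries was analysed, grouped by the genotype label. The authors deposited estimated counts per Ensembl gene as whole numbers without normalization, and a normalized signal, which, per the file headers and values, scales the estimated counts by factors specific to gene and library. DRAGEN, DESeq2 and mm10 are named without role or version per the submitters' processing notes. Neither strand use nor the annotation is given in the sources used here. Symbols, positions and exon lengths came from GENCODE for the same build.

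Genes were tested with edgeR 4.0.16 in R 4.3.3 (two-sided quasi-likelihood F test) with TMM scaling, filterByExpr, robust dispersions and Benjamini-Hochberg adjustment over all 15840 tested genes. An adjusted p under 0.05 was a call. SEs were obtained from the log2 fold change and the square root of F. Shares and ratios were compared by exact permutation over 15 splits. Alternatives used DESeq2 1.42.0 (size factors and Wald test), limma 3.58.1 voom, no filter, the GC and length correction by loess, the authors' factors as offsets, the legacy edgeR dispersion and left-out libraries. Named genes were all members, the 4 genes of smallest p in each further list (2 for cofactor supply), the 5 fibrillar genes and the 3 nearest profiles of P4ha1, Plod2 and Serpinh1. The members and lists were chosen with earlier results of these data known. Replicate numbers follow accession order and pair no libraries.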

Additional observations from a re-analysis of the deposited data

Results flagged for a closer look

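P4hb in the library labelled Htr2b_cKO 3, at 1212 CPM, stood apart from the other 3 Htr2b_cKO libraries (1580, 1621 and 1631 CPM). Its gap to the nearest library was 0.878 of the range of the 4, above Dixon's critical value for 4 samples. It was the only one of 19 quantities checked in this way, and chance alone gives such a gap in about 1 group in 20. The same library had the highest summed macrophage markers of the 6, at 3321 CPM, and an Htr2b count above both controls. The part of these in the P4hb value was not tested.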

How the results depend on the processing

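No paired analysis was possible because the replicate numbers were given in accession order. Across 14 alternatives, 0 of the 10 members and 0 of the other collagen biosynthesis genes were called, and 124 of 140 recomputed member fold changes kept their sign. Corrected for GC content and exon length, log2 fold changes were 0.10 for P4hb, 0.027 for Plod1, 0.19 for Serpinh1, 0.089 for Fkbp10 and 0.0053 for Crtap, so 5 estimates below 0 turned positive. Without the libraries labelled Htr2b_cKO 3 and 4, an alternative chosen after seeing the data like the authors' factors and the legacy dispersion, they were 0.0061 for P4hb, 0.023 for Serpinh1 and 0.044 for Fkbp10. Leaving out each library in turn gave -0.12 to 0.026 for P4hb, -0.20 to 0.16 for Plod1, -0.090 to 0.10 for Serpinh1 and -0.15 to 0.021 for Fkbp10. Over all genes, 3 were called, against 125 with the DESeq2 Wald test, 5 with no filter, 5 without Htr2b_cKO 3 and 4, and 1 to 8 when each library was left out. In percentage points, Htr2b_cKO minus control, leaving out each library gave -4.71 to 2.54 for the P4ha1 share, -2.82 to 0.23 for P4ha2, -1.06 to 5.12 for P4ha3, -7.17 to 0.55 for Plod1, 0.78 to 12.9 for Plod2 and -5.76 to -1.32 for Plod3. On the log2 scale it gave -0.24 to 0.087 for the members per fibrillar collagen and -0.26 to 0.082 for Serpinh1. The GC and length correction, added for shares and ratios after seeing the data, gave 0.056 points for the P4ha2 share, -4.21 for P4ha1, 4.16 for P4ha3, 1.26 for Plod2, 0.80 for the Plod3 share, 0.040 for the members per fibrillar collagen and 0.072 for Serpinh1. The causes of these shifts were not tested. With 2 control libraries, SEs of 0.15 to 0.33 limit what change could be detected.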

Other observations

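Crtap works in a complex with the prolyl 3-hydroxylase P3h1 and the cyclophilin Ppib. The ratio of Crtap to P3h1, in levels per kb, was 2.80, 2.67, 2.68 and 2.65 in the Htr2b_cKO libraries, against 2.69 and 3.07 in the control libraries (exact two-sided permutation p = 0.133). Crtap and P3h1 thus kept nearly the same ratio even in the library labelled Htr2b_cKO 3, where both were lowest. The ratio of Ppib to P3h1 was less steady, at 1.92, 2.39, 2.80 and 1.97 in the Htr2b_cKO libraries, against 2.34 and 2.15 in the control libraries. The ratio of Plod2 to its helper Fkbp10, in levels per kb, was 0.633, 0.519, 0.475 and 0.781 in the Htr2b_cKO libraries, against 0.314 and 0.509 in the control libraries (exact two-sided permutation p = 0.2). These 3 ratios were chosen after the values had been seen.

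Genes that supply the cofactors of the hydroxylases were also read. Of 11 listed, 10 were found by symbol and 9 passed the filter, 4 with a log2 fold change above 0 and 5 below, and 0 were called by edgeR (1, Tfrc, had an unadjusted p under 0.05, beside 9.59% of all genes). Tfrc, the transferrin receptor that brings in iron, had 14.1, 14.45, 16.3 and 12.9 CPM in the Htr2b_cKO libraries, against 9.44 and 11.9 CPM in the control libraries (log2 fold change 0.45, SE 0.19, edgeR adjusted p = 0.513). Idh2, a mitochondrial enzyme that makes 2-oxoglutarate, had 98.9 ± 4.4 CPM in Htr2b_cKO (n = 4) and 118 ± 13 CPM in control libraries (n = 2; log2 fold change -0.26, edgeR adjusted p = 0.574). The groups of both genes did not overlap, which is 2 of 9 genes beside 19.6% of all genes. Tfrc was no longer higher at an unadjusted p under 0.05 with the correction for GC and length, with the DESeq2 Wald test, without Htr2b_cKO 2, without control 1 or without the libraries labelled Htr2b_cKO 3 and 4.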
